A study of Mus musculus with 18 samples.

Results

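The C/EBPα sites bound at every time point were 1135 stretches of 200 bp that carried C/EBPα reads before induction and at each of 7 times after it. They were chosen by their C/EBPα levels alone. Each of the 11968110 bins of 200 bp without unknown bases on the 19 mouse autosomes (build mm9) was given its normalised reads, the reads per 10000000 kept, in each of the 8 C/EBPα libraries. For this, 1 read was kept per position and strand and read starts were moved 75 bp inward. A bin was a member if it held 10 or more in all 8, 0 hpi (hours post-induction) included, which 0.00948% of all bins did. The C/EBPα values below are therefore a description of the choice, and only C/EBPβ, PU.1, the DNA sequence and the position in the genome are independent of it.

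C/EBPα and C/EBPβ are basic leucine zipper proteins that bind DNA as dimers. Both recognise a short palindromic element, and they can exchange places at it. PU.1 (gene *Sfpi1*) is an Ets factor needed by macrophages and B cells, and it often sits beside C/EBP proteins at myeloid enhancers. Bound places can be promoters, where transcription starts, or distal elements, which act on genes at a distance.

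The cells were C10, a mouse pre-B cell line derived from HAFTL cells, which carries a C/EBPα-estrogen receptor fusion with GFP that enters the nucleus upon β-estradiol (β-Est). Induced cells received β-Est, at 100 nM by the labels and at the same number of µM by the study's methods, together with IL-3 and CSF-1 at 10 nM. The labels name 0.1% ethanol as the control treatment. ChIP-seq of C/EBPα covered 0 hpi, 10, 30 and 60 min, and 3, 12, 24 and 48 hpi. The same cells were profiled for C/EBPβ and for PU.1, both at 0, 3, 12, 24 and 48 hpi. All libraries came from this 1 line, whose fusion protein was present in the uninduced cells as well, and there was 1 library per factor and time. No library had a replicate and no control (input) library was used here, so that values were set side by side without a test between libraries. The intervals given are 95% exact intervals (Clopper-Pearson for shares, Poisson for levels). They cover counting error only, and nearby bins are not independent of each other. A level cannot tell a larger share of bound cells from longer binding in each cell.

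Sequences of 14 member regions, picked from the regions named below, show the elements counted in the members. Each is 100 bases of the forward strand of mm9 centred on the summit of the summed C/EBPα reads, and is named by the nearest protein-coding gene. Capitals mark the C/EBP element TTGCNNAA, the composite ATF/C/EBP element TGATGCAA and the PU.1 element GAGGAAGT on either strand. The first 5 were printed because they hold the perfect palindrome TTGCGCAA.
Btbd19, chr4:116793069-116793168: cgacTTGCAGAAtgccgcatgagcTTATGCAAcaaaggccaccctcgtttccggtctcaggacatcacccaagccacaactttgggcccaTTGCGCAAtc
Cotl1, chr8:122364521-122364620: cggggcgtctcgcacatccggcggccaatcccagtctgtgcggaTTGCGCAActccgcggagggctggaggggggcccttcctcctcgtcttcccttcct
Cdkl4, chr17:80960233-80960332: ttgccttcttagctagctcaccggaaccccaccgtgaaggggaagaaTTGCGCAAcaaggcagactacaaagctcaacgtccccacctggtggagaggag
Nfe2l2, chr2:75541465-75541564: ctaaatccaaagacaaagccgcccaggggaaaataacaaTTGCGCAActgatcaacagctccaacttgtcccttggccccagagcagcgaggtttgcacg
Nfil3, chr13:53076639-53076738: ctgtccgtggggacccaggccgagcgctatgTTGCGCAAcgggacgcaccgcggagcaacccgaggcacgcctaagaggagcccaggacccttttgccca
The next 7 hold other spacers between the outer letters of the element, and the *Mknk1* region also a PU.1 element.
Mef2c, chr13:83213329-83213428: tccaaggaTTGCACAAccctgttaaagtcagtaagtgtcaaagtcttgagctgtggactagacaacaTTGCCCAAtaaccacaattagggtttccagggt
Ndel1, chr11:68685430-68685529: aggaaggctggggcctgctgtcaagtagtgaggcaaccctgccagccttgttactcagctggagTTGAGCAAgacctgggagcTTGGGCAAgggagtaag
Il1b, chr2:129199054-129199153: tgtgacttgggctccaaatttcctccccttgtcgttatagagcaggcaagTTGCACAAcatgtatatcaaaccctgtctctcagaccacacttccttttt
Cebpb, chr2:167579552-167579651: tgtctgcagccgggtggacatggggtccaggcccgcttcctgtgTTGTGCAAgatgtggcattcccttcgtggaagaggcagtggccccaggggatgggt
Mknk1, chr4:115520192-115520291: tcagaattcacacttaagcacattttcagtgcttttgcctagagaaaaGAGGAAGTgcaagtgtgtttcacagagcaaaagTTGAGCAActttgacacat
Il4ra, chr7:132699236-132699335: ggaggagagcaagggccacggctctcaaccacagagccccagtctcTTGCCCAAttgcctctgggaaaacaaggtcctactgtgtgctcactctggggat
Itgax, chr7:135277253-135277352: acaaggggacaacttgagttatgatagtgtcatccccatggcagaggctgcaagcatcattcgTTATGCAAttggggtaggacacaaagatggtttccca
The last 2 hold the composite element in place of TTGCNNAA.
Il6, chr5:30274848-30274947: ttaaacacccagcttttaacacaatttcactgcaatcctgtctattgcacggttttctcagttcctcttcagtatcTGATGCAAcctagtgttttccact
Atf3, chr1:193007106-193007205: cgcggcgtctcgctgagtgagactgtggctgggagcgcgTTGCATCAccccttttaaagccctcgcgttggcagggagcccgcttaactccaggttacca

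The label of bound sites did not describe all members equally well. Of the 1135, 270 lay in 4 dense stretches, defined after the data were seen as 10 or more members at gaps of up to 10 kb. The largest held 195 members within 73.0 kb of chromosome 11 (3027001 to 3100000), across *Pisd-ps1*, *Sfi1* and *Drg1*. The others held 32 members on chromosome 9 (3000001 to 3036600), 28 on chromosome 17 (39979801 to 39985800), over the pseudogene AY036118, and 15 on chromosome 2 (98502401 to 98507600). In these stretches the C/EBPα median stayed between 21.5 and 31.4 normalised reads in the 8 libraries, the C/EBPβ median between 21.0 and 29.6, and the PU.1 median between 17.7 and 22.0. These medians mostly reflect the stretch on chromosome 11, and the factors differed in the others. On chromosome 17 the PU.1 medians (94.1 to 159.6) lay above those of C/EBPβ (35.1 to 58.1). On chromosome 2 those of C/EBPβ (132 to 214) lay above PU.1 (75.6 to 119), and on chromosome 9 too (29.2 to 68.8 against 16.7 to 23.6). TTGCNNAA was found in 11 of the 270 bins (4.07%), against 9.28% of all bins. Relative to the surrounding 10 kb, the dense members were raised 1.34 to 1.51 times (medians of the C/EBPα libraries), and those elsewhere 6.63 to 18.9 times. The surroundings of a dense member hold other members by definition, so this low ratio follows in part from the choice. What raised reads in the dense stretches was not tested. The remaining 865 members are described from here on, with the values over all 1135 where they differ.

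The 865 members formed 742 regions when bins that touched or lay 1 bin apart were joined. Of these regions 622 consisted of 1 bin, 117 of 2 and 3 of 3. The rule cut through a continuous range of levels. The members just inside had lowest values of 10.03, near *C130026I21Rik*, *6330403A02Rik*, *F830104G03Rik*, *Asph* and *Plac8*. The bins just outside had lowest values of 10.00 (below the minimum before rounding) and 9.88, near *Sfi1* at 2 positions and near *Mcm3*, *Man2b2* and *E030030I06Rik*. In all, 357 bins missed the rule with a lowest value of 8 or more. Depth set how many reads the minimum stood for: 6 at 12 hpi, 8 at 24 and 48 hpi, 9 at 0 hpi, 12 at 3 hpi, and 14, 20 and 25 at 30, 60 and 10 min. Among the C/EBPα libraries the fewest reads were kept at 12 hpi (5970869) and the most at 10 min (24917810). The C/EBPβ libraries were smaller, from 2903580 to 5844202, and the PU.1 libraries had 6575348 to 11349746. The 3 libraries of 10, 30 and 60 min were read on another sequencer (HiSeq instead of Genome Analyzer) with 50-base reads, so that early time and sequencer cannot be told apart.

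For comparison, 2 other kinds of bins were used beside all bins. The 1265 bins bound after induction only held 10 or more in the 7 later C/EBPα libraries but less at 0 hpi. They were also chosen by C/EBPα, and 580 of them held 5 or more at 0 hpi, close to the minimum. The 2371 bins of the other kind held 10 or more at 0 hpi and missed it at least once later. Of all 3506 bins at the minimum at 0 hpi, 32.4% were members.

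Membership did not mean constant binding. Across the 865 members the C/EBPα median was 16.9 normalised reads at 0 hpi, 24.5 at 10 min, 66.9 at 30 min, 63.0 at 60 min, 62.0 at 3 hpi, 55.3 at 12 hpi, 34.3 at 24 hpi and 28.9 at 48 hpi. Levels were thus lowest before induction, highest between 30 min and 12 hpi, and in between at the end. By region, the highest value came at 30 min in 274 of 742, at 12 hpi in 224, at 3 hpi in 149 and at 60 min in 57, and at 0 hpi in 18. The lowest level was that of 0 hpi in 406 regions, of 10 min in 143, of 48 hpi in 99 and of 24 hpi in 68. The ratio of the highest to the lowest level had a median of 5.01 (quartiles 3.51 and 7.68), and 23 regions varied less than 2-fold. Compared with 0 hpi, the level at 48 hpi had a median ratio of 1.54 (quartiles 0.940 and 2.85). It was at least 2-fold higher in 284 regions, at least 2-fold lower in 33, and within 2-fold in 425.

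**Figure D1:**
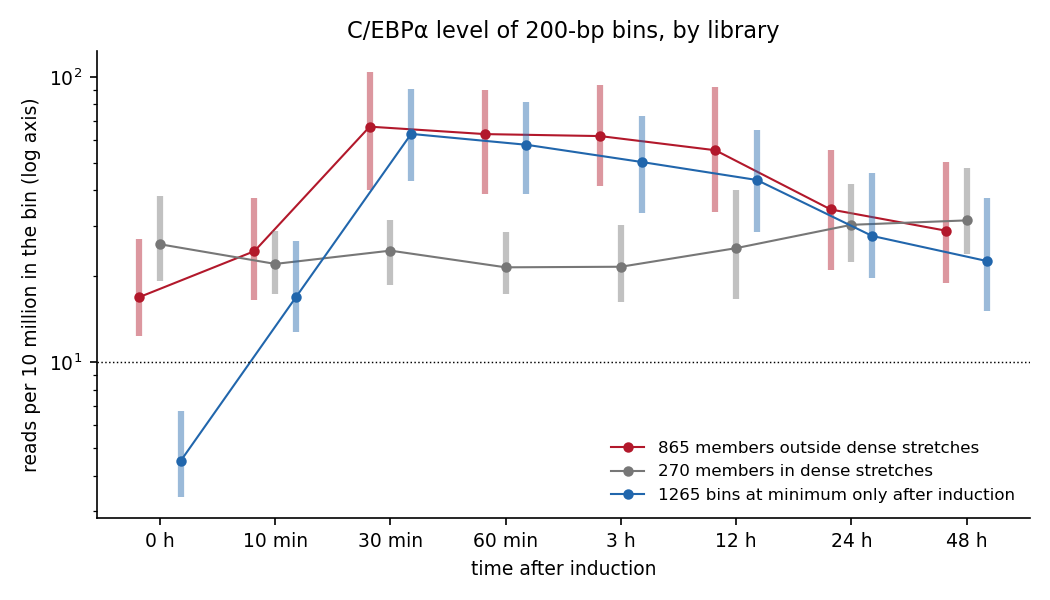
C/EBPα reads per 10000000 (log axis) in each of the 8 libraries, in time order and not to scale in time. Points are medians over bins, bars run from the first to the third quartile, and the dotted line is the minimum of 10. Members outside the dense stretches had a median of 16.9 at 0 hpi and 66.9 at 30 min, members in dense stretches stayed between 21.5 and 31.4, and bins bound after induction only began at 4.51.

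Outside the dense stretches, the region with the highest minimum over the 8 libraries lay near *Btbd19*, 1.89 kb downstream of its transcription start site (TSS). Its C/EBPα levels were 105 (95% interval 84.6 to 128), 92.7, 189, 136, 210.2, 296, 202 and 199 (169 to 232) normalised reads from 0 to 48 hpi. The level after 48 h lay above the interval at 0 hpi. In an intron of *Zc3h12d* C/EBPα ran at 76.7, 82.7, 184, 137, 163, 206, 154 and 175. At the promoter of *Dclre1c*, which encodes the Artemis nuclease of V(D)J recombination, it ran at 84.6, 63.8, 124, 101, 122, 122, 75.1 and 66.6. This promoter returned to within the interval of its starting level (66.5 to 106). At the promoter of *Cotl1*, an actin-binding protein, levels were 103 (82.6 to 126), 70.6, 117, 88.5, 88.1, 88.8, 64.6 and 61.6 (45.6 to 81.4), so that the end lay below the start. The promoter of *Abhd11* held 85.7 at 0 and 91.7 at 48 hpi, with 141 at 3 and 151 at 12 hpi. The other 7 with the highest minima lay 15.4 kb from *Ldlrad3*, 429.7 kb from *Mef2c*, 9.80 kb from *Olfr266*, 196 kb from *Cdkn2b*, 35.3 kb from *Atp1b3*, 5.67 kb into *Tnfrsf1b*, the gene of a TNF receptor, and 23.5 kb from *Gm5614*. The last stood apart from the others. It held 194 C/EBPα, 343 C/EBPβ and 311 normalised PU.1 reads at 0 hpi, more C/EBPβ than any other region outside the dense stretches, and has no TTGCNNAA.

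Around the summits of the 742 regions, reads formed 1 narrow peak for each factor. For C/EBPα the mean depth at the summit was 23.5 normalised reads at 0 hpi and 79.7 at 30 min, against 1.23 and 1.69 at 1.5 to 2 kb, and the peak was 100 to 150 bp wide at mid-height. C/EBPβ had 18.6 at 0 hpi and 88.0 at 48 hpi at the same summits, with the same width. The mean PU.1 profile was broader around these summits, with a width of 200 to 250 bp. Regions were aligned on C/EBPα, so PU.1 peaks offset from the summit would widen this mean. PU.1 depth at the C/EBPα summit was 25.1 at 0 hpi and 20.2 to 31.2 over the course, below C/EBPα and C/EBPβ from 3 hpi on. The summit was chosen on C/EBPα reads, so its C/EBPα height is partly given by the choice and that of the other factors is not.

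**Figure D2:**
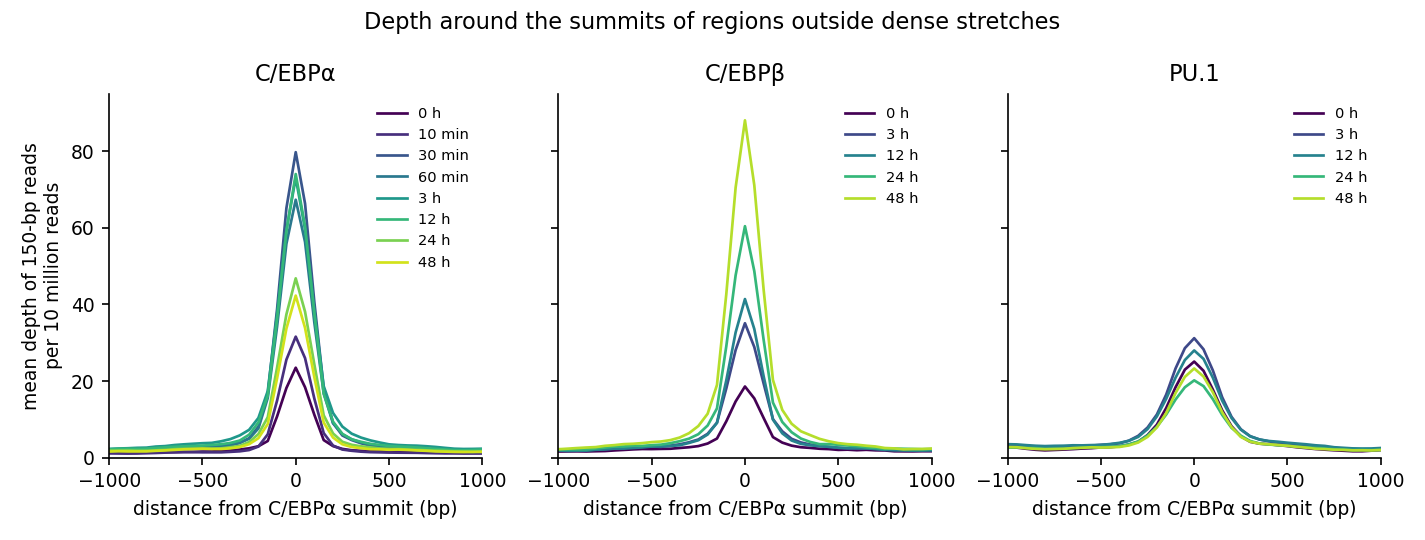
Mean depth of reads extended to 150 bp, per 10000000 reads, by distance in bp from the C/EBPα summit, over 742 regions outside the dense stretches. Lines are libraries, coloured by time. C/EBPα was highest at 30 min (79.7), C/EBPβ at 48 hpi (88.0) and PU.1 at 3 hpi (31.2).

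C/EBPβ reads were found at many members before induction. At 0 hpi 581 of 865 members (67.2%, 63.9 to 70.3) held 10 or more normalised C/EBPβ reads, where 0.0738% of all bins did. At a minimum of 20 the share was 35.0%. The minimum of 10 stood for 5 reads at 0 hpi, and for 6, 3, 4 and 6 at the later times. Shares of different times thus rest on unlike read counts. The share rose to 91.4% at 3 hpi (0.140% of all bins), 93.1% at 12 hpi (0.537%), 94.8% at 24 hpi (0.225%) and 97.7% at 48 hpi (0.248%). All 5 C/EBPβ libraries passed at 529 members (61.2%, against 0.0126% of all bins). The C/EBPβ median was 14.0, 27.4, 31.0, 48.0 and 74.9 normalised reads from 0 to 48 hpi. It was thus highest at the last time, while C/EBPα had come down. Of the 581 members with C/EBPβ at 0 hpi, 486 (83.6%, 80.4 to 86.6) were at least 2-fold higher at 48 hpi (with 1 normalised read added), compared with 13.9% of all such bins. At least 2-fold lower were 4 (0.688%), compared with 59.4%. Taking bins that are high at 0 hpi favours a later decrease. A choice of bins at 10 or more at either time treats both times alike. By it 751 of 853 members (88.0%) and 74.0% of all such bins were higher, and 0.469% and 14.6% lower. Of all bins, 8830 met the minimum at 0 hpi and 29667 at 48 hpi. The bins bound after induction only differed most before induction, where 18.4% (16.3 to 20.7) held C/EBPβ and the median was 4.67. At 48 hpi their share was 93.0%, and their median of 33.5 was under that of the members. The rise in C/EBPβ was not particular to the members. Of the bins bound after induction only with C/EBPβ at 0 hpi, 167 of 233 (71.7%, 65.4 to 77.4) were at least 2-fold higher at 48 hpi. By the choice of either time 91.8% of these bins were. When both kinds of bins were limited to those with no more than 20 normalised C/EBPα reads at 48 hpi, 148 of 242 members (61.2%) and 99 of 521 other bins (19.0%) held C/EBPβ at 0 hpi. Over all 1135 members the share at 0 hpi was 72.7%.

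The regions with the most C/EBPβ at 0 hpi, after the one near *Gm5614*, lay in an intron of *Cdkl4* and upstream of *Ctr9*, which encodes a subunit of the PAF1 elongation complex. In the *Cdkl4* region C/EBPβ was 135, 133, 238, 243 and 333 normalised reads from 0 to 48 hpi, and C/EBPα was 115, 64.6, 109, 90.1, 119.5, 56.9, 23.7 and 39.0. In the *Ctr9* region C/EBPβ was 107, 133, 176, 249.6 and 289.6, and C/EBPα fell from 109 (88.7 to 133) to 40.2 (27.5 to 56.8). Both hold TTGCGCAA, and PU.1 stayed at or below 11.2 and 4.41 there. C/EBPβ was thus higher and C/EBPα lower at the end of the course in both. Across the 742 regions C/EBPα and C/EBPβ levels went together, with a Spearman rho of 0.63 at 0 hpi and 0.58 at 48 hpi. C/EBPα at 0 hpi and at 48 hpi went together less (0.17). Regions are not independent replicates, and the rule bounds the C/EBPα values from below.

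PU.1 divided the members. At 0 hpi 422 of 865 (48.8%, 45.4 to 52.2) held 10 or more normalised PU.1 reads, against 0.402% of all bins. At a minimum of 20 the share was 31.1%. The minimum of 10 stood for 8, 7, 11, 12 and 11 PU.1 reads from 0 to 48 hpi. The shares were 62.9% at 3 hpi (0.551% of all bins), 68.4% at 12 hpi (0.718%), 55.8% at 24 hpi (0.484%) and 53.6% at 48 hpi (0.478%). PU.1 passed in all 5 libraries at 359 members (41.5%, against 0.218%), and at 191 of the 742 regions it passed in none. The bins bound after induction only were near the members at 0 hpi (52.6%, 49.8 to 55.4) and above them at 48 hpi (64.3%, 61.6 to 66.9). The PU.1 median was 9.93, 16.7, 17.7, 12.3 and 11.5 normalised reads from 0 to 48 hpi, highest in between and nearly back at the end. Of the 422 members with PU.1 at 0 hpi, 32 (7.58%) were at least 2-fold higher at 48 hpi, against 5.83% of all such bins, and 46 (10.9%) at least 2-fold lower, against 31.7%. Taking bins that are high at 0 hpi favours a decrease here too. With 508 members at 10 or more at either time, 17.1% were higher and 9.06% lower, against 30.1% and 20.5% of all such bins. The levels at 0 and 48 hpi followed each other across regions (Spearman rho 0.83). Over all 1135 members 57.5% held PU.1 at 0 hpi. All 18 libraries reached the minimum at 380 of the 1135 (33.5%), 160 of them in the dense stretches. By the rule only members can do so, and these 380 make up 0.00318% of all bins.

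**Figure D3:**
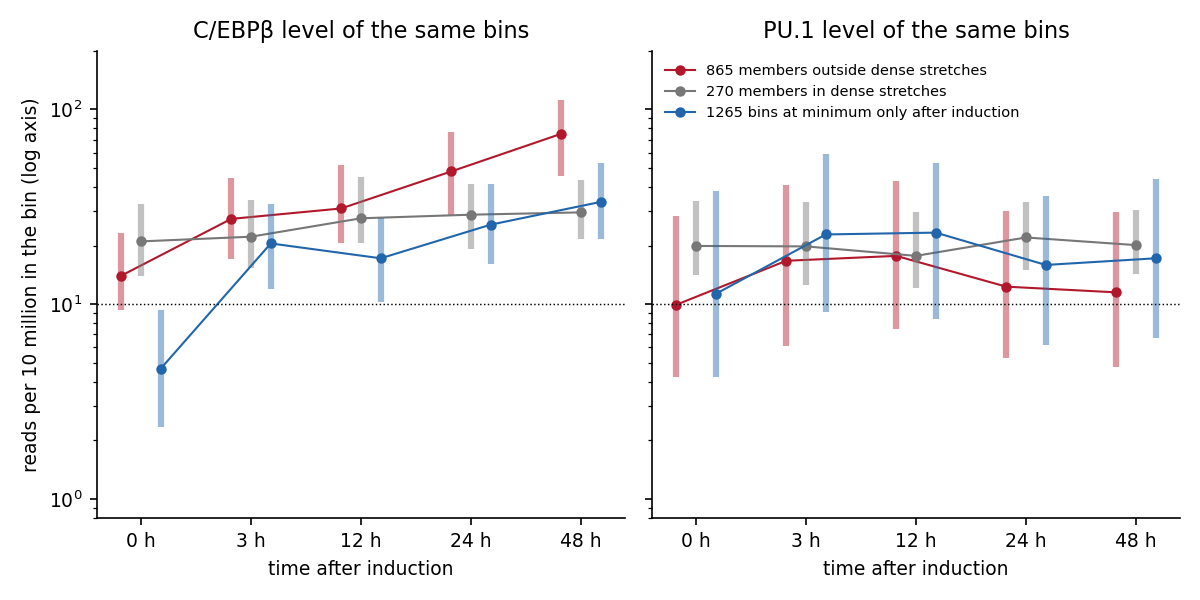
C/EBPβ and PU.1 reads per 10000000 (log axis) in the same bins at 0, 3, 12, 24 and 48 hpi. Points are medians over bins, bars the quartiles, and the dotted line is the minimum of 10. C/EBPβ at members outside the dense stretches went from 14.0 to 74.9, and PU.1 lay between 9.93 and 17.7.

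The most PU.1 at 0 hpi was found in an intron of *Mknk1*, 8.45 kb from its TSS. PU.1 stood at 318, 332, 203, 144 and 223 normalised reads there. C/EBPα rose at the same place from 10.1 (4.64 to 19.3) at 0 hpi to 51.8 at 10 min and 139 at 30 min, and stood at 99.3 (78.6 to 124) at 48 hpi. A region 36.4 kb upstream of *Cecr5* had nearly as much PU.1 (313 at 0 hpi, 127 at 48 hpi), with C/EBPα at 14.7 and 46.5. It holds neither a C/EBP nor a PU.1 element, though it does hold the Ets core GGAA, as 93.2% of members and 87.5% of all bins did. At the other end, 37 regions had no PU.1 read at 0 hpi, with an exact interval of 0 to 5.23 normalised reads. Those near *C130026I21Rik* and in *Sp110*, named because they come first in genome order, had flat C/EBPα levels, from 10.0 to 18.4 and from 12.4 to 20.3.

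C/EBP elements were frequent in the members' sequence. TTGCNNAA was found in 402 of 865 members (46.5%, 43.1 to 49.9), in 30.9% of the bins bound after induction only and in 9.28% of all bins. TGATGCAA was found in 9.36%, 3.00% and 0.617% in the same order, and 478 members (55.3%) held 1 of the 2. The PU.1 element was found in 7.98%, 9.88% and 1.20%. RUNX (TGTGGTT) was less frequent in members (7.40%) than in the bins bound after induction only (12.6%), and EBF1 (TCCCNNGGG, 10.6% against 5.22%) and the GC box (GGGCGG, 14.9% against 5.14%) were more frequent. All bins had 4.73%, 1.87% and 2.01% for these 3. The bins of 0 hpi that missed a later library were nearer to the members, with 6.88%, 8.61% and 12.4%. These bins held TGATGCAA in 7.22% and TTGCNNAA in 26.9%. The members had a median GC content of 51.0%, compared with 47.0% in the bins bound after induction only and 42.0% in all bins. The bins of 0 hpi that missed a later library had 52.0%. The part of base composition in these shares was not tested. AP-1 (TGAGTCA or its reverse, and TGAATCA) was near the background, with 7.86% against 5.96% of all bins. The E-box CACGTG was found in 4.62% of members, 3.24% of the bins bound after induction only and 1.99% of all bins. In the same order CCAAT was found in 24.0%, 20.2% and 29.1%, the CRE TGACGTCA in 0.578%, 0.395% and 0.111%, and the octamer ATGCAAAT in 1.16%, 1.90% and 1.70%.

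**Figure D4:**
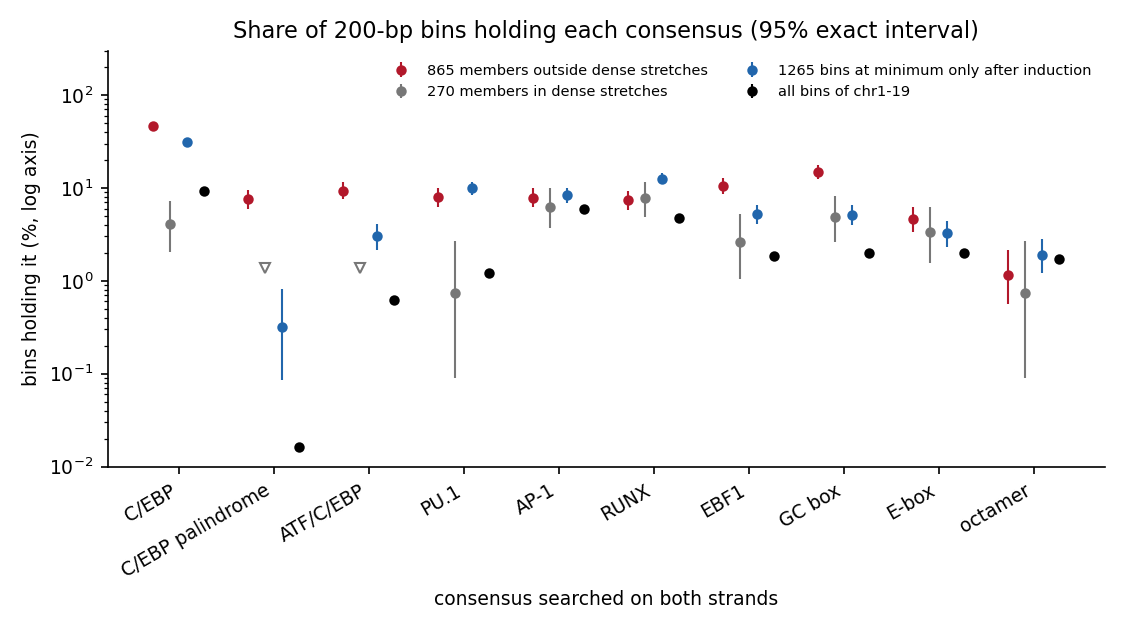
Percent of 200-bp bins (log axis) that hold each consensus on either strand, for members outside and in the dense stretches, bins bound after induction only, and all bins. Bars are 95% exact intervals, and open triangles mark the upper limit where no bin held the element. The palindrome stood at 7.63% in members, 0.316% in bins bound after induction only and 0.0162% in all bins.

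The element sat under the summit. In 394 of 742 regions (53.1%, 49.4 to 56.7) a TTGCNNAA lay within 50 bp of the summit, and in 30 (4.04%) at 150 to 200 bp. Among the 441 regions with one within 200 bp, the nearest had a median distance of 10.0 bp. For TGATGCAA the shares were 10.5% and 0.539%, with a median distance of 14.0 bp in the 87 regions that had one. The PU.1 element was more spread out, with 5.80% within 50 bp and a median distance of 53.0 bp in 92 regions. AP-1 elements had 4.58% within 50 bp and 3.77% farther out.

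The bases in the middle of the element differed in frequency between the members and the bins bound after induction only. This breakdown was chosen after the first shares had been seen. The palindrome TTGCGCAA was found in 66 of 865 members (7.63%, 5.95 to 9.61), in 4 of 1265 bins bound after induction only (0.316%, 0.0862 to 0.808) and in 1941 of all bins (0.0162%). It was as frequent in the bins of 0 hpi that missed a later library (6.75%). TTGCGTAA behaved alike, also in the bins of 0 hpi that missed a later library (4.47%). It was found in 4.39% of members, 0.158% of bins bound after induction only and 0.0418% of all bins. TTGCACAA was the most common form, in 12.5% of members, 4.90% and 0.613%. In contrast, TTGCATAA (3.47%, 3.00% and 0.662%) and TTGCTCAA (6.01%, 4.43% and 0.680%) differed less between the first 2 kinds, and TTGCAAAA was less frequent in members (2.20%) than in bins bound after induction only (4.51%). Farther than 1 kb from a protein-coding TSS the palindrome was found in 35 of 662 members (5.29%), in 2 of 1152 bins bound after induction only (0.174%) and in 135 of 1753 bins of 0 hpi that missed a later library (7.70%).

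C/EBPα over time differed between regions with and without the palindrome. In the 63 with it the levels had medians of 39.5, 30.1, 70.0, 65.5, 74.6, 53.6, 34.3 and 31.4 normalised reads from 0 to 48 hpi. In the 308 regions with another TTGCNNAA the medians were 18.04, 28.5, 79.6, 75.2, 72.8, 63.6, 38.2 and 32.7. The palindromes thus began higher and ended at about the same level. C/EBPα was lower at 48 than at 0 hpi in 41 of 63 (65.1%, 52.0 to 76.7), compared with 68 of 308 (22.1%, 17.6 to 27.1), and the median log2 ratio was -0.47 and 0.81. Since the rule bounds every level from below, a region that starts low has little room to fall. Among regions that started at 20 or more, 38 of 48 with the palindrome (79.2%, 65.0 to 89.5) and 48 of 130 with another TTGCNNAA (36.9%, 28.6 to 45.8) were lower at 48 hpi, with median starts of 46.79 and 29.32. The regions with TGATGCAA only had 31 of 45 (68.9%, 53.4 to 81.8) with a median start of 28.19, which overlaps the palindromes, and those with none of these elements 34 of 78 (43.6%, 32.4 to 55.3). The palindromes still began higher than the others, so that these C/EBPα shares describe the members and cannot tell the element from the starting level. C/EBPβ was higher at the palindromes at both ends of the course, with medians of 35.0 and 146 at 0 and 48 hpi, compared with 16.3 and 83.7. PU.1 was lower (4.25 against 9.93 at 0 hpi), and it reached the minimum at 0 hpi in 25.4% against 46.4%. Of the palindrome regions 46.0% lay within 1 kb of a protein-coding TSS, against 21.4%. Over all starts, the 75 regions with TGATGCAA only had a median log2 ratio of 0.06, and the 296 with none of these elements had 0.71.

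The largest increase was at the promoter of *Ndel1*, a dynein regulator, where C/EBPα went from 13.5 (6.99 to 23.6) through 34.1, 158, 134, 243, 360.1 and 277 to 259 (225 to 297), or 19.1-fold. C/EBPβ went from 28.0 to 296 there, and PU.1 from 14.2 to 49.7. The second was 64.8 kb upstream of *Il6*, an inflammatory cytokine gene, with 11.3 at 0, 202 at 30 min and 145 at 48 hpi, and the third near *Slpi*, which encodes a leukocyte protease inhibitor, with 13.5, 135 and 165. The largest decreases were 40.0 kb from *Utp6* (86.8, 67.7 and 20.1 at the same 3 times), in an intron of *Nfe2l2*, the gene of the stress regulator NRF2 (54.1, 113 and 12.6), and 228 kb from *Tbc1d5* (46.2, 154 and 12.6). All 3 of these hold TTGCGCAA, and none of the 3 that rose most does. In the *Nfe2l2* region C/EBPβ rose over the same time from 53.7 to 112, and PU.1 stayed at or below 6.53. Of the 33 regions at least 2-fold lower at 48 than at 0 hpi, 13 held the palindrome (39.4%, 22.9 to 57.9), against 8.49% of all 742 regions. The rule bounds the level at 48 hpi from below, so only regions that started at 20 or more can fall 2-fold. Of those regions, 48 held the palindrome, 130 another TTGCNNAA, 45 TGATGCAA only and 78 none of these. The share of all 742 is therefore not a matched base. None of the 33 held the PU.1 element (0 to 10.6%), against 9.16% of all 742. C/EBPβ was at least 2-fold higher in 27 of the 33 (81.8%, 64.5 to 93.0), against 88.1%. Of the 102 regions at least 4-fold higher, 2 held the palindrome (1.96%, 0.238 to 6.90), 16 the PU.1 element (15.7%, 9.24 to 24.2), and C/EBPβ was at least 2-fold higher in 100 (98.0%, 93.1 to 99.8). At 0 hpi the 33 had a C/EBPα median of 42.8 and the 102 one of 13.5, against 16.9 in all 742. The shares of both groups were not matched for this starting level and describe the members only.

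Among the members, PU.1 before induction went with later C/EBPα. In the 363 regions with 10 or more PU.1 reads at 0 hpi C/EBPα had medians of 16.9 at 0, 73.8 at 30 min, 63.6 at 12 and 36.4 at 48 hpi, and in the 379 others 18.04, 68.4, 51.9 and 25.1. The 2 groups were close at the start and drew apart later. Every C/EBPα level here was used by the rule and bounded from below at 10, which holds starting levels together. The C/EBPα values of this paragraph therefore describe the members only. The level at 48 hpi was at least 2-fold above that at 0 hpi in 180 of the 363 (49.6%) and 104 of the 379 (27.4%), and below it in 61 (16.8%) and 147 (38.8%). Among regions that started at 20 or more, 37 of 130 with PU.1 (28.5%, 20.9 to 37.0) and 114 of 171 others (66.7%, 59.1 to 73.7) were lower at 48 hpi. TTGCNNAA was less frequent in the regions with PU.1 (43.8%, 38.6 to 49.1) than in the others (55.9%, 50.8 to 61.0), and the PU.1 element more frequent (17.4% against 1.32%). C/EBPβ at 0 hpi reached the minimum in 66.4% and 67.8%, a difference within the counting intervals of either. Across the 742 regions PU.1 at 0 hpi had a Spearman rho of -0.09 with C/EBPα at 0 hpi, 0.08 at 60 min and 0.30 at 48 hpi. PU.1 and C/EBPα both at 48 hpi had 0.43.

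**Figure D5:**
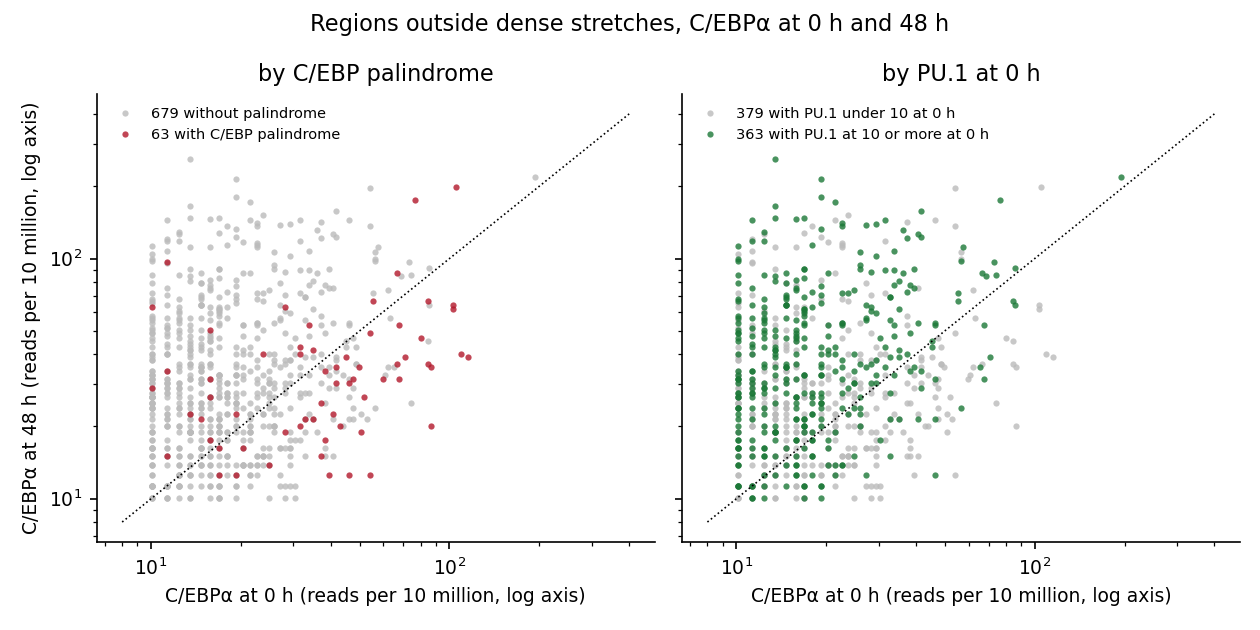
C/EBPα reads per 10000000 at 0 hpi (x axis) and 48 hpi (y axis), both on log axes, for 742 regions outside the dense stretches. Each point is a region and the dotted line marks equal levels. Of the 63 regions with the palindrome 41 lie below the line (left), and of the 363 with PU.1 at 0 hpi 61 do (right).

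The members lay at promoters more often than the bins bound after induction only, and about as often as the other bins of 0 hpi. Of the 865, 203 lay within 1 kb of a protein-coding TSS (23.5%, 20.7 to 26.4), compared with 8.93% (7.42 to 10.6) and with 2.36% of all bins. Within 200 bp of a TSS lay 119 (13.8%, against 3.79% and 0.541%). The bins of 0 hpi that missed a later library had 26.0% (24.3 to 27.8) within 1 kb and 13.9% within 200 bp. A further 276 lay in introns (31.9%), 356 between genes (41.2%), 22 in exons outside coding sequence and 8 in coding sequence. The median distance to a protein-coding TSS was 11867 bp, compared with 17883 and 54350 bp. Promoter regions had more C/EBPα at 0 hpi than those farther away (medians 23.7 and 16.3) and less at 30 min (51.5 and 77.3). C/EBPβ reached the minimum at 48 hpi at all 170 promoter regions, and PU.1 at 0 hpi at 57 of them (33.5%), against 306 of 572 farther away (53.5%).

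The 742 regions were nearest to the TSSs of 675 of 21275 protein-coding genes (3.17%). Myeloid and blood regulators stood above this, with 15 of 37 annotated genes (40.5%): *Irf5*, *Klf4*, *Egr1*, *Egr3*, *Maf*, *Nfe2*, *Runx1*, *Myb*, *Myc*, *Tal1*, *Lmo2*, *Lyl1*, *Zeb2*, *Mef2c* and *Nfil3*. The bins bound after induction only were nearest to 12 of these 37, and to 4.19% of all genes. Genes with large empty surroundings have more chances to be nearest, and this was not adjusted for. All gene lists were chosen with earlier results of these data known. Their shares are therefore a description and no evidence of an enrichment. Of cytokine signalling and feedback genes 10 of 33 were nearest to a region (*Dusp5*, *Dusp6*, *Il4ra*, *Il6ra*, *Ifngr2*, *Tgfbr2*, *Nfkbiz*, *Gadd45a*, *Gadd45b* and *Rela*), of PU.1 and other Ets factors 4 of 12 (*Sfpi1*, *Ets2*, *Fli1* and *Erg*), of AP-1 factors 3 of 15 (*Fosl2*, *Junb* and *Atf3*), and of the C/EBP family 2 of 6 (*Cebpb* and *Ddit3*). Of macrophage and granulocyte genes 7 of 61 were (*Csf2rb*, *Itgax*, *Tlr2*, *Tyrobp*, *Il1b*, *Ccl3* and *Cd44*), and 13 were nearest to a bin bound after induction only. Of B-lineage genes 1 of 27 was, *Igll1*, which encodes a part of the pre-B cell receptor, and 5 were nearest to a bin bound after induction only. For the other lists these bins were nearest to 11 of 33 signalling genes, 4 of 12 Ets factors, 5 of 15 AP-1 factors and 1 of 6 C/EBP genes. The shares depended on the definition. Within 100 kb of a region lay 10.8% of all genes, 23 of the 61 macrophage and granulocyte genes (37.7%), 15 of the 37 regulators (40.5%), 12 of the 33 signalling genes, 5 of the 12 Ets factors, 6 of the 15 AP-1 factors, 2 of the 6 C/EBP genes and 3 of the 27 B-lineage genes.

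The regulators' own regions differed in their course. At *Sfpi1* a region on chromosome 2 (90923201 to 90923400) lay 0.753 kb downstream of 1 annotated TSS. C/EBPα went there from 31.6 (21.0 to 45.6) normalised reads at 0 hpi to 218 at 12 and 145 (119 to 173) at 48 hpi. PU.1 lay between 91.2 and 172. The other *Sfpi1* region (90938401 to 90938600) lay in an intron, 1.56 kb downstream of another *Sfpi1* TSS. The 2 distances are not from the same start, and the first region is near a promoter only by its own. By these coordinates the first region lies many kb from the other start and is distal to it. The study names an upstream URE enhancer of this gene, and whether the first region is that enhancer was not checked here. C/EBPα in the second region ended near its start (39.5 and 32.7, with 25.7 at 10 min and 60.4 at 60 min). PU.1 did not pass 7.64 there, and C/EBPβ rose from 28.0 to 262. So 2 regions nearest to 1 gene went different ways. The *Cebpb* regions lay 65.3 and 71.3 kb downstream. The nearer went from 13.5 (6.99 to 23.6, on 12 reads) to 112 (89.8 to 138) and the farther from 32.7 to 69.1. C/EBPβ itself rose there from 9.34 to 199 and from 32.7 to 238. The study lists a *Cebpb* enhancer at about the nearer distance as de novo, a class without active marks before induction. The nearer region was not matched to it here, and its interval at 0 hpi reaches below the minimum of 10. At *Ddit3*, which encodes the C/EBP family member CHOP, C/EBPα had 63.1 normalised reads before induction, 19.7 after 10 min and 56.6 after 48 h, and C/EBPβ rested on 3 reads at 0 hpi and stood at 41.4 at 48 hpi.

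Among blood regulators, the promoter region of *Nfe2* went from 41.7 (29.4 to 57.5) at 0 hpi to 255 at 12 and 157 (131 to 187) at 48 hpi. A region 18.3 kb upstream of a *Runx1* TSS went from 31.6 through 243 at 12 hpi to 118. The *Tal1* promoter, which holds the palindrome, had 35.0, 72.0 and 41.5 at these 3 times, within the interval at 0 hpi (23.8 to 49.6) at the end. An intronic region of *Myb*, a regulator of progenitors, had 41.7, 96.1 at 30 min, 21.8 at 12 and 30.2 at 48 hpi, with C/EBPβ rising from 51.4 to 193 and PU.1 at or below 7.60. The C/EBPα level at the end lay within the interval at 0 hpi (29.4 to 57.5), while C/EBPβ rose. *Lyl1* (13.5 to 90.5), *Zeb2* (16.9 to 69.1 and 36.1 to 131) and *Klf4* (19.2 to 76.7, 91.2 kb away) rose between 0 and 48 hpi. At the *Nfil3* promoter, which also holds the palindrome, C/EBPα went from 10.1 to 28.9, 1 of the 22 palindrome regions that were not lower at the end.

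Of the 7 macrophage and granulocyte genes, most had a region with more C/EBPα at 48 than at 0 hpi, as did 534 of all 742 regions (72.0%). Upstream of *Il1b*, an inflammatory cytokine gene, C/EBPα went from 12.4 (6.19 to 22.2) to 114 at 3 and 62.8 (46.6 to 82.8) at 48 hpi, with PU.1 from 46.8 to 105. In *Itgax*, the gene of the integrin CD11c, it went from 15.8 (8.63 to 26.5) to 75.4 (57.5 to 97.1), with PU.1 from 35.5 to 118. At the *Csf2rb* promoter, the gene of the β chain shared by the IL-3 and GM-CSF receptors, it went from 11.3 to 44.0. The levels at 0 hpi in these 3 stood on 10 to 14 reads, and their intervals reach below the minimum of 10. *Ccl3* (10.1 to 66.6), *Tlr2* (4.04-fold) and *Tyrobp* (10.1 to 26.4) went the same way, and *Cd44* did not (13.5 to 12.6, with 105 at 30 min). Near *Igll1* C/EBPα rose from 15.8 to 96.1 at 30 min and was back at 17.6 at 48 hpi, within the interval at the start (8.63 to 26.5).

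Among signalling genes, the largest gain was near *Dusp6*, a phosphatase that acts on ERK. It went from 12.4 (6.19 to 22.2) to 239 at 12 and 127 (103 to 154) at 48 hpi, or 10.2-fold. A second region near *Dusp6* had 12.4 and 12.6 at 0 and 48 hpi, with 95.2 at 3 hpi. At the *Il6ra* promoter C/EBPα went from 41.7 to 123, and in *Il4ra* from 24.8 to 74.1 with PU.1 at 196 and 146. At the AP-1 gene *Junb* C/EBPα went from 20.3 to 52.8. At *Atf3*, also an AP-1 gene, the levels at both ends were alike (28.2 and 37.7, with intervals of 18.2 to 41.6 and 25.4 to 53.8). The *Nfkbiz* promoter had no C/EBPβ read at 0 hpi, with an exact interval of 0 to 8.61 normalised reads, and 27.6 at 48 hpi.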

How the data were processed

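ChIP-seq reads of 18 libraries were used: 8 of C/EBPα, 5 of C/EBPβ and 5 of PU.1. The authors deposited the positions and strand of each aligned read, with no scaling. According to the methods, ELAND or Bowtie aligned the reads to mm9 without mismatches, and only unique, non-identical reads were kept. Which aligner made which library is not given in the sources used here, and HOMER is also named in the submitters' processing notes, with no version. Of reads with the same position and strand 1 was kept, which removed at most 2.51%. The 5′ ends were moved 75 bp inward, counted in bins of 200 bp and scaled to 10000000 kept reads. A ratio over time within 1 factor used a pseudocount of 1 normalised read where stated. Bases and genes came from the NCBIM37 (mm9) genome and GENCODE vM1. The 18 libraries carried 1 sample per factor and time, so no test between them was made. The code for selection and thinning was run on simulated reads, with planted sites far above the minimum set there. How the rule performs near its minimum was not tested by this. The members, gene lists, elements and named regions (the 12 highest minima, the 3 extremes of each measure and every listed gene's region) were chosen with earlier results of these data known, and the dense stretches and the breakdown of the element after these data were seen. Sequences shown were picked from the named regions. Values are printed for some of the named regions only. Chromosomes X, Y and M were left out of the rule. Python 3.11.15 with numpy 2.4.6, scipy 1.17.1, pandas 2.3.3, numba 0.67.0 and matplotlib 3.10.9 was used.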

Additional observations from a re-analysis of the deposited data

Results flagged for a closer look

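The rule covered the autosomes, and the same minimum in all 8 C/EBPα libraries was met by further bins elsewhere. On chromosome X 95 bins met it, of which 79 lay in 1 dense stretch and 35 reached 10 in all 18 libraries. On chromosome Y 46 bins met it, 40 of them in 2 dense stretches, with a median PU.1 level of 0 at 0 hpi. On the mitochondrial chromosome 50 of 82 bins met it, and none of these reached 10 in all 18 libraries. No control library was there to set these counts against, and what raised the reads in these bins was not tested.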

How the results depend on the processing

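The number of members depended mainly on 0 hpi: leaving out 1 C/EBPα library gave 1140 to 2400 members (866 to 2127 outside the dense stretches), and the highest of both came without 0 hpi. A minimum of 15 left 537 (380 outside), and 720 members reached 4 times the surrounding 10 kb in every C/EBPα library. The share with C/EBPβ at 0 hpi was 87.4% in 400 bp, 63.7% with C/EBPα thinned to the smallest library, 75.1% with C/EBPβ thinned, 72.7% with the dense stretches, 80.5% and 61.4% at C/EBPα minima of 15 and 8, 35.0% at a C/EBPβ minimum of 20, and 59.2% without the 10, 30 and 60 min libraries. At 48 hpi it was 99.3% in 400 bp, 99.5% and 96.2% at minima of 15 and 8, 92.5% at 20 for C/EBPβ, 98.8% at 4 times the surroundings and 93.9% without the 3 early libraries. For PU.1 at 0 hpi the values were 65.1% in 400 bp, 57.5% with the dense stretches, 31.1% at a minimum of 20 and 43.8% without the early libraries. At 48 hpi they were 69.9%, 62.2%, 36.6% and 49.5%, and 57.9% at a C/EBPα minimum of 15. TTGCNNAA was found in 50.1% with bins started at 100, 36.4% with the dense stretches, 57.4% at a minimum of 15, 50.8% at 4 times the surroundings, 57.3% with 50 bp added on each side and 42.8% without the early libraries. TTGCGCAA was found in 5.81% with the dense stretches, 12.1% at a minimum of 15 and 10.2% with 50 bp added. The share near a TSS was 27.9% with all annotated genes, 29.2% at a minimum of 15 and 13.8% within 200 bp. In 400 bp the C/EBPα medians were 27.1, 37.7, 105, 95.7, 96.1, 85.4, 51.4 and 44.0 in time order. Scaled to reads outside bound bins they were 74.2 at 30 min, 70.1 at 60 min, 69.8 at 3 hpi, 61.5 at 12 hpi and 37.2 at 24 hpi. Against 2 kb the members were raised 5.17 times at 0 and 6.39 times at 48 hpi, and 10.8% of genes had a region within 100 kb. The alternatives on the dense stretches, the early libraries, the starting level and the level at 0 hpi for changes over time were chosen after seeing the data. Where no value or construction shows it, the cause was not tested. Leaving out repeat-masked bins was not run, since the genome used carries no repeat mask. No paired analysis was possible because each factor and time had 1 library.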
